A study of Mus musculus domesticus with 12 samples.

Results

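Glycolysis breaks glucose down to pyruvate, and 10 enzyme genes of this route were followed through the series in the order of the pathway: Gpi1, Pfkl, Aldoa, Tpi1, Gapdh, Pgk1, Pgam1, Eno1 and Pkm, with Ldha, which turns pyruvate into lactate. The genes were taken by symbol as members of the pathway, with earlier results of these data known. They are 10 of the 55385 gene identifiers in each table, and all 10 were among the 17650 genes kept by the filter on low counts. The cells carried a short hairpin RNA (shRNA) against Dis3 (shDis3, 4 libraries) or against Exosc10 (shExosc10, 4 libraries), and the control cells carried one against luciferase (shLuc, 4 libraries). Dis3 and Exosc10 are the catalytic nucleases of the RNA exosome, a complex that trims and degrades RNA. All groups were C57BL/6J mouse fetal liver cells of stage E14.5, depleted of lineage-positive cells, infected with a retrovirus, cultured in erythroid expansion medium (2 days), and sorted for GFP and for either of a pair of gates, CD71intTer119- for erythroid precursors and CD71int/+Ter119- for proerythroblasts. The labels do not say whether the 4 libraries of a group came from separate embryos or cultures, so each p-value measures only the spread between these libraries, which may be technical.

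The first part of the pathway spends ATP to split a hexose into triose phosphates, and the second part recovers ATP and NADH. Mature red cells have no mitochondria and live on glycolysis, and a side branch from the middle of the pathway makes 2,3-bisphosphoglycerate, which lowers the oxygen affinity of haemoglobin. In many tissues the genes of the pathway are transcribed more strongly at low oxygen through the factors HIF-1 and HIF-2, and the same factors act on genes outside the pathway such as Bnip3 and Egln3. In these libraries all 10 enzyme transcripts were abundant, and in shDis3 against shLuc their log2 fold changes lay between -0.77 (Pfkl) and -0.28 (Gapdh) with a median of -0.57. None passed the test with all 12 libraries (adjusted p = 0.9998 for each in edgeR's test), beside 0% of all genes tested. For all but Pgam1 the libraries of shDis3 and shLuc overlapped, and 0.782% of all genes were lower in shDis3 without overlap.

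How far reads can be assigned to these genes depends on their near copies, and the sequences that bear on this are shown here, from the GENCODE M21 transcripts on GRCm38. Of the stretches of 75 bases in each gene's annotated transcripts, none of those of Pfkl occurred in another gene's transcript, and the share was 0.672% for Aldoa, 1.35% for Tpi1, 2.47% for Ldha and 4.17% for Gpi1. It was higher for Pkm (17.8%), Gapdh (22.6%), Eno1 (23.0%), Pgam1 (34.9%) and Pgk1 (52.8%), whose partner with most shared stretches was Pgk1-rs7. A read that lies wholly within such a stretch cannot be assigned to a single gene by its sequence. How often this arose in the authors' run, whose annotation is not given, was not measured. The 2 named pseudogenes of Gapdh were assigned at most 0.0369% and the 2 of Pgk1 at most 0.109% of the counts of gene and copies together. These counts leave out Pgk1-rs7 and most of the 118 other genes that share stretches with Gapdh. They therefore do not show how many reads went to all copies. The clearest case was Pgam1 on chromosome 19, whose coding sequence of 762 bases without the stop codon was identical over its whole length to the pseudogene Pgam1-ps2 on chromosome 7. The first 60 coding bases of both are given, with no capitals because no base differs.
Pgam1: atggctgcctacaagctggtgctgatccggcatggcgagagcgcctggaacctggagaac
Pgam1-ps2: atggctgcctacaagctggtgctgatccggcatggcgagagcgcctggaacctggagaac
Pgam1-ps2 was assigned 92 to 857 counts per library, which was 1.98% to 6.96% of the counts of the pair. Eno1b, a near copy of Eno1, held 0.736% to 1.67% of the counts of its pair.

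The isozymes that share a step with a member are more distant, and this matters for the isozyme shares given further on. The longest identical coding run between Pfkl and Pfkm, the liver and the muscle phosphofructokinase, was 26 bases. Windows of 60 bases around this run are shown, with the bases that differ in capitals. Bases are counted from the start codon.
Pfkl: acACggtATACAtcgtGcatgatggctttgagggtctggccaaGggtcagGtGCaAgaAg
Pfkm: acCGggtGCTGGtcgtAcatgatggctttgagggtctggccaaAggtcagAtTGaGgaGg
The Pfkl window covers coding bases 1289 to 1348 (chromosome 10) and the Pfkm window 1292 to 1351 (chromosome 15), and they differ at 14 bases. Among the pairs compared, the longest shared run was highest between Pkm and Pklr, at 31 bases. It was also 26 bases between Aldoa and Aldoc and 20 bases between Eno1 and either Eno2 or Eno3. Between Ldha and Ldhb and between Pfkl and Pfkp it was 18 bases.

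Libraries held 14936200 to 32397204 expected counts, and 9.79% to 20.93% of them lay on the mitochondrial genome. The targeted transcripts followed the labels: Dis3 lay between 24.74 and 52.37 CPM in shDis3, 116.6 and 196.2 CPM in shExosc10 and 113.4 and 160.5 CPM in shLuc, and Exosc10 lay between 18.88 and 30.77 CPM in shExosc10, 80.13 and 141.1 CPM in shDis3 and 85.42 and 113.1 CPM in shLuc. CPM here is the count divided by the library's TMM-scaled total, on the usual per-megaread scale. Over all genes some libraries correlated better with a library of another group than with their own group. Replicate 4 of shLuc correlated at 0.986 with shDis3 replicate 3 and at most at 0.946 with the other shLuc libraries. Replicate 1 of shExosc10 correlated at 0.981 with shDis3 replicate 4 and at most at 0.942 with its own group, and shDis3 replicate 4 at most at 0.968 with its own. Results are therefore also given without these 3 libraries, which were picked by the expression of all genes, the members included, so that values without them describe the remaining libraries and are no independent test. The choice was uneven: shDis3 replicate 2, the lowest library for all 10 enzymes, also correlated better with a shLuc library (0.963) than with its own group (0.930), by a wider margin than shDis3 replicate 4, and shDis3 replicate 3 did so too (0.986 with shLuc replicate 4, 0.972 with its own group). By smaller margins the same held for shLuc replicate 2 (0.972 against 0.967) and for shExosc10 replicates 2 (0.972 against 0.970) and 4 (0.966 against 0.965). When libraries were clustered, shDis3 replicates 1, 3 and 4 fell together with shExosc10 replicate 1 and shLuc replicate 4. Replicate 4 of shDis3 thus did not stand apart from its group by clustering. Replicate 2 of shDis3 fell with the other shExosc10 libraries and shLuc replicates 2 and 3, and shLuc replicate 1 was alone in its cluster. The 3 libraries are therefore not a distinct set by correlation or by clustering. Values with shDis3 replicate 2 left out, an alternative chosen after seeing the data, are therefore given as well.

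All 10 transcripts were abundant, and their levels spanned a wide range along the pathway. On the TPM scale, which is per length and so allows genes to be compared, Gapdh (glyceraldehyde-3-phosphate dehydrogenase, the step that makes NADH) was highest with 1610 ± 363 TPM over the 12 libraries (SD). It ranked first in every library, and its distance from the next gene exceeded the SD of either. Ldha (lactate dehydrogenase A) had 569.5 ± 115.7 TPM, Aldoa (aldolase A) 523.1 ± 152.4 TPM and Eno1 (enolase 1) 474.6 ± 114.4 TPM. Ldha was above Aldoa in 8 of 12 libraries and Aldoa above Eno1 in 9 of 12, and neither pair differed by more than its spread. Pkm had 365.9 ± 86.6 TPM and Gpi1 295.8 ± 78.89 TPM, and each was below the gene before it in this order in 12 of 12 libraries although the difference was smaller than the SD. Pgk1 with 218.2 ± 55.04 TPM, Pgam1 with 196.3 ± 47.65 TPM and Tpi1 with 180.1 ± 47.19 TPM were close to each other, each above the next in 7 of 12 libraries. Pfkl was lowest in every library with 32.2 ± 9.983 TPM, beyond the SD of its neighbour Tpi1. The order of the means was the same in shDis3, shExosc10 and shLuc.

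**Figure D1:**
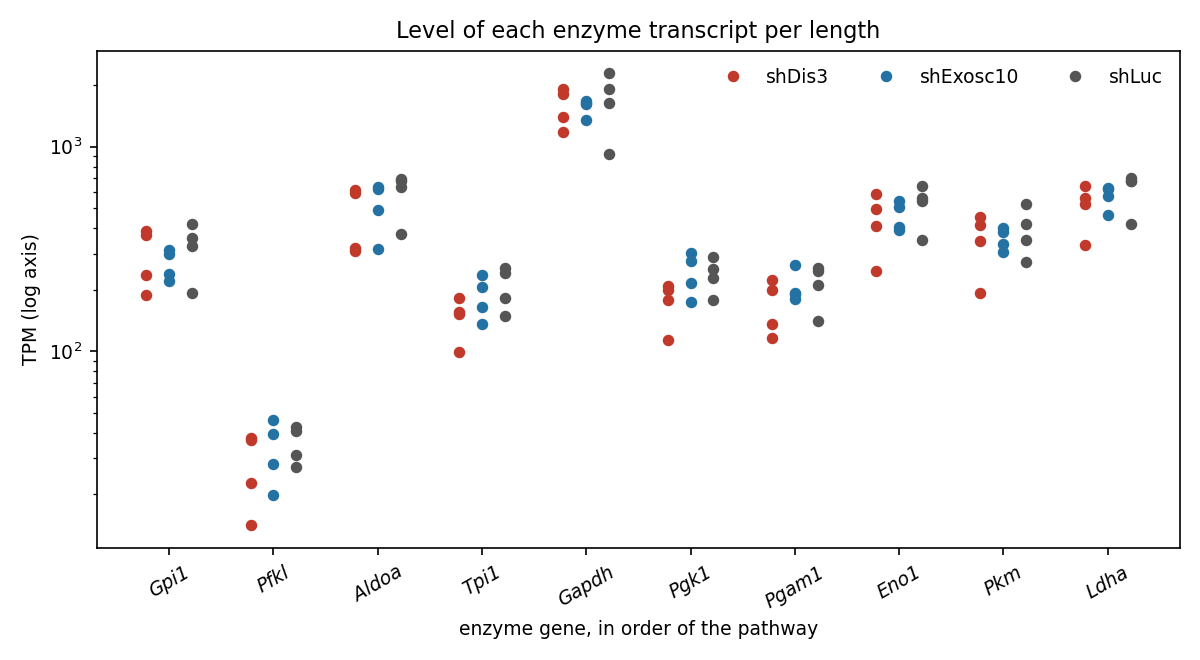
TPM (log axis) of each enzyme transcript in each library, in the order of the pathway. Each point is a library, with shDis3 left of shExosc10 and shLuc. Gapdh lies above and Pfkl below the other genes in every library, while the points of the groups overlap.

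Summed over the 10 genes, the level was 4834, 2793, 5238 and 3738 TPM in shDis3 replicates 1 to 4, 3763, 4077, 5025 and 4778 TPM in shExosc10 and 3021, 5697, 5110 and 5518 TPM in shLuc. On the CPM scale the same sum was 6434, 4421, 6002 and 7430 in shDis3, 6604, 6817, 8220 and 7716 in shExosc10 and 8403, 7841, 11180 and 6369 in shLuc. The scales ordered some libraries differently. Replicate 1 of shLuc was second lowest in TPM and second highest in CPM, and shLuc replicate 4 was second highest in TPM and below all but shDis3 replicates 2 and 3 in CPM. TPM is divided by the length-weighted total of each library, and genes shorter than 300 bases held 13.42% of that total in shLuc replicate 1 and 3.558% in shLuc replicate 4, with 4.087% to 13.2% in the others. Their part in the difference between the scales was not tested. Libraries are compared on the CPM scale below, and levels of different genes on the TPM scale.

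The enzymes of the first part of the pathway had lower mean CPM in shDis3 than in shLuc, and none passed the test. Gpi1 (glucose-6-phosphate isomerase, ENSMUSG00000036427.5, chr7:34201330-34230336, minus strand), which converts glucose 6-phosphate to fructose 6-phosphate, had 619.7, 401.4, 542.4 and 559.7 CPM in shDis3 replicates 1 to 4, 485.7, 516.8, 643.5 and 630.3 CPM in shExosc10 replicates 1 to 4 and 664.9, 590.6, 940.7 and 561.2 CPM in shLuc replicates 1 to 4. The groups overlapped, with shLuc replicates 2 and 4 inside the range of shDis3. Its log2 fold change was -0.38 (SE 0.20) in shDis3 against shLuc, -0.28 (SE 0.20) in shExosc10 against shLuc and -0.10 (SE 0.20) in shDis3 against shExosc10. Pfkl (ENSMUSG00000020277.10, chr10:77986947-78010083, minus strand) is the liver subunit of phosphofructokinase, the committed and regulated step. It had 101.1, 53, 100.1 and 94.5 CPM in shDis3 replicates 1 to 4, 72.41, 118.5, 144.3 and 132.6 CPM in shExosc10 replicates 1 to 4 and 157, 143.8, 203.5 and 91.84 CPM in shLuc replicates 1 to 4. Replicate 4 of shLuc lay below 3 of the shDis3 libraries, the other shLuc libraries lay above all of them, and shDis3 replicate 2 was the lowest of all 12. The log2 fold change of Pfkl was -0.77 (SE 0.28) in shDis3 against shLuc, -0.35 (SE 0.28) in shExosc10 against shLuc and -0.42 (SE 0.28) in shDis3 against shExosc10.

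Aldoa (ENSMUSG00000030695.16, chr7:126795234-126800751, minus strand), which cleaves fructose 1,6-bisphosphate into trioses, had 735.8, 470.6, 643.7 and 587.8 CPM in shDis3 replicates 1 to 4, 516.9, 804.8, 951 and 906.2 CPM in shExosc10 replicates 1 to 4 and 922.5, 915.9, 1376 and 666.3 CPM in shLuc replicates 1 to 4. Apart from shLuc replicate 4, the shLuc libraries lay above every shDis3 library, and shExosc10 replicate 1 lay among the shDis3 libraries. The log2 fold change of Aldoa was -0.67 (SE 0.25) in shDis3 against shLuc, -0.29 (SE 0.25) in shExosc10 against shLuc and -0.38 (SE 0.25) in shDis3 against shExosc10. A second identifier with the symbol Aldoa in the annotation is a separate entry, and adding its counts left the values as they were to the printed digits. Tpi1 (ENSMUSG00000023456.15, chr6:124810586-124814296, minus strand), which interconverts the trioses, had 193.8, 148.1, 186.8 and 278.3 CPM in shDis3 replicates 1 to 4, 221.2, 264.6, 362.8 and 311.8 CPM in shExosc10 replicates 1 to 4 and 364.4, 335.3, 482.1 and 186.1 CPM in shLuc replicates 1 to 4. The shDis3 libraries and shLuc replicate 4 were at the low end, and shDis3 replicate 4 reached into the range of shExosc10. The log2 fold change of Tpi1 was -0.76 (SE 0.27) in shDis3 against shLuc, -0.24 (SE 0.27) in shExosc10 against shLuc and -0.52 (SE 0.27) in shDis3 against shExosc10. Unadjusted p-values in shDis3 against shLuc were 0.0146 for Pfkl, 0.0162 for Aldoa and 0.0143 for Tpi1, and the adjusted p of edgeR's quasi-likelihood test was 0.9998 for each of the 10 enzymes.

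**Figure D2:**
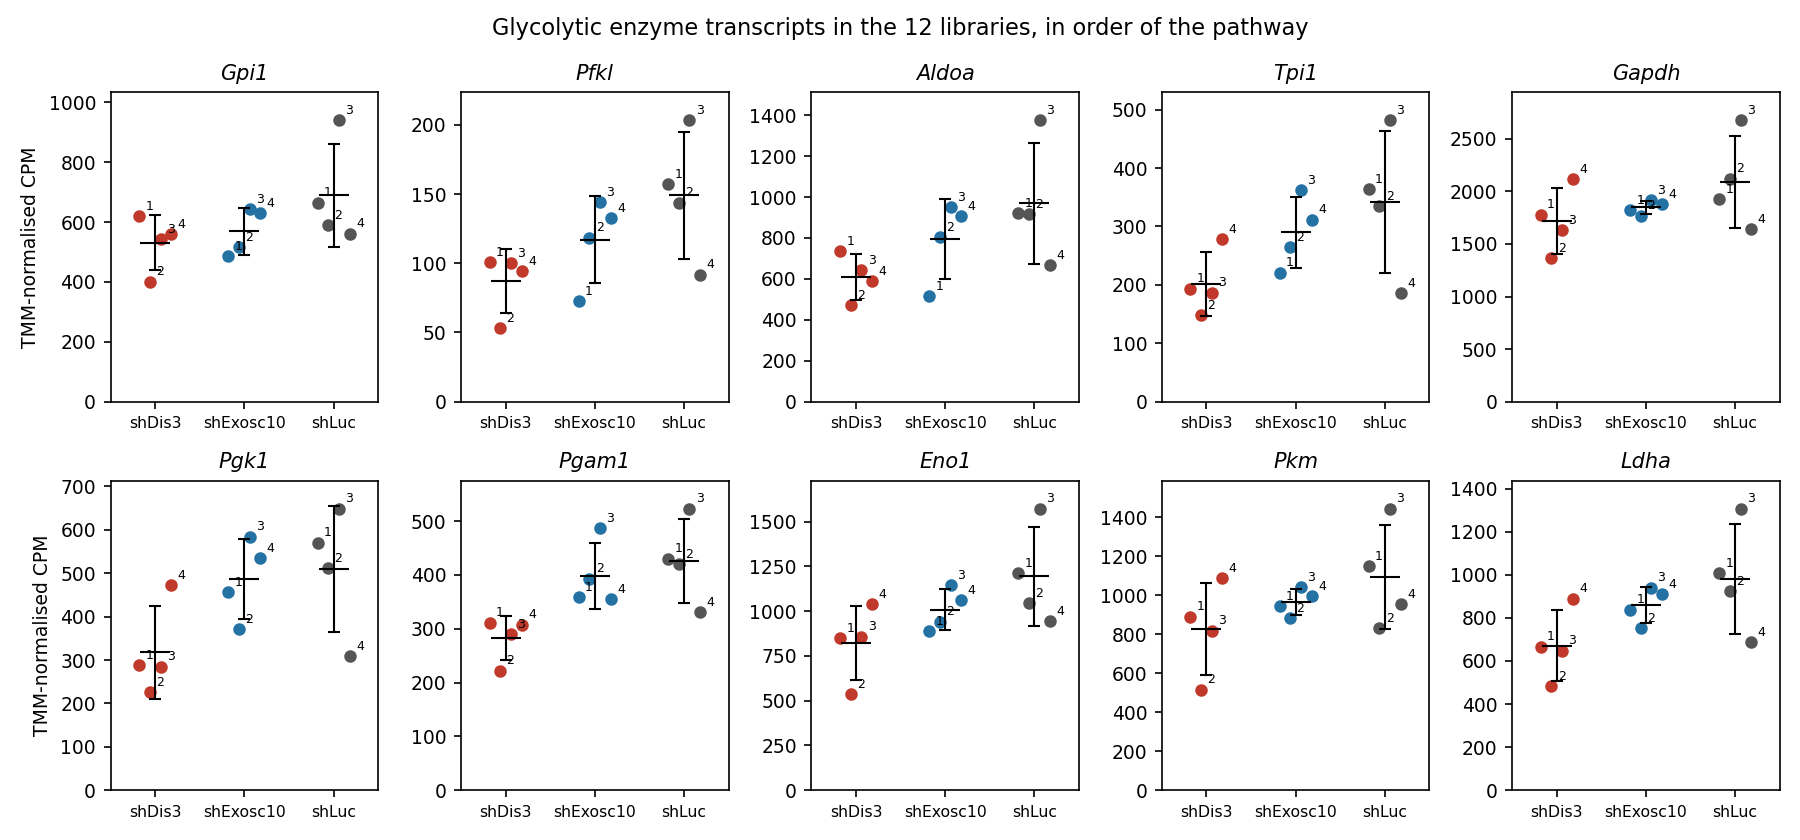
CPM of each enzyme transcript in the 12 libraries, with shDis3, shExosc10 and shLuc from left to right in each panel. Points are libraries with their replicate number, and bars give the mean and SD of 4 libraries. In Pgam1 all shDis3 points (222.0 to 311.4) lie below all shExosc10 and shLuc points, while in the other panels the shDis3 points overlap those of both other groups. The shExosc10 and shLuc points overlap in every panel.

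The enzymes of the second part and Ldha also had lower mean CPM in shDis3 than in shLuc, and none passed the test. Gapdh (ENSMUSG00000057666.18, chr6:125161715-125166467, minus strand) had 1779, 1363, 1630 and 2115 CPM in shDis3 replicates 1 to 4, 1822, 1770, 1920 and 1879 CPM in shExosc10 replicates 1 to 4 and 1925, 2121, 2678 and 1641 CPM in shLuc replicates 1 to 4. The groups overlapped widely, with shDis3 replicate 4 above 2 of the shLuc libraries. Its log2 fold change was -0.28 (SE 0.19) in shDis3 against shLuc, -0.18 (SE 0.19) in shExosc10 against shLuc and -0.10 (SE 0.19) in shDis3 against shExosc10. Pgk1 (phosphoglycerate kinase, the first step that makes ATP, ENSMUSG00000062070.12, chrX:106187100-106203699, plus strand) had 288, 225.5, 284.6 and 473.1 CPM in shDis3 replicates 1 to 4, 457.3, 371.8, 584.4 and 534.1 CPM in shExosc10 replicates 1 to 4 and 570.5, 512.2, 648.9 and 308.2 CPM in shLuc replicates 1 to 4. Replicate 4 of shDis3 lay above shExosc10 replicates 1 and 2, and shLuc replicate 4 lay below it, while the other 3 shDis3 libraries were below every other library. The log2 fold change of Pgk1 was -0.68 (SE 0.26) in shDis3 against shLuc, -0.07 (SE 0.26) in shExosc10 against shLuc and -0.62 (SE 0.26) in shDis3 against shExosc10. On log2(TPM + 1) it was 0.016 in shExosc10 against shLuc.

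Pgam1 (phosphoglycerate mutase, ENSMUSG00000011752.7, chr19:41911923-41918660, plus strand) moves the phosphate group between carbons of phosphoglycerate. It had 311.4, 222, 290.5 and 307.7 CPM in shDis3 replicates 1 to 4, 359.3, 393, 486.5 and 354.9 CPM in shExosc10 replicates 1 to 4 and 430.3, 420, 523.1 and 331.4 CPM in shLuc replicates 1 to 4. All 4 shDis3 libraries lay below all shExosc10 and all shLuc libraries. Its means were 282.9 ± 41.61 CPM in shDis3, 398.4 ± 61.13 CPM in shExosc10 and 426.2 ± 78.38 CPM in shLuc (SD, n = 4 each), and its log2 fold change was -0.59 (SE 0.19) in shDis3 against shLuc, -0.10 (SE 0.19) in shExosc10 against shLuc and -0.49 (SE 0.19) in shDis3 against shExosc10. The unadjusted p of edgeR's test in shDis3 against shLuc was 0.00686 and the adjusted p was 0.9998, so that it too missed the threshold. Among all genes tested, 0.782% were lower in shDis3 than in shLuc without overlap, beside 1 of the 10 enzymes, and 1.8% were lower in shDis3 than in shExosc10 without overlap, again beside Pgam1 alone. None of the 10 was so in shExosc10 against shLuc, beside 1.46% of all genes. Adding the counts of named pseudogenes to each gene, without other copies such as Pgk1-rs7, left all 10 uncalled in every comparison.

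Eno1 (ENSMUSG00000063524.13, chr4:150236721-150248879, plus strand), which makes phosphoenolpyruvate, had 848.4, 538.3, 857.6 and 1039 CPM in shDis3 replicates 1 to 4, 888.6, 941.3, 1145 and 1061 CPM in shExosc10 replicates 1 to 4 and 1212, 1047, 1573 and 943.8 CPM in shLuc replicates 1 to 4. Replicate 4 of shDis3 lay within the range of shExosc10 and above shLuc replicate 4, and the other 3 shDis3 libraries lay below every shExosc10 and shLuc library. The log2 fold change of Eno1 was -0.54 (SE 0.22) in shDis3 against shLuc, -0.24 (SE 0.22) in shExosc10 against shLuc and -0.30 (SE 0.22) in shDis3 against shExosc10. Pkm (ENSMUSG00000032294.17, chr9:59656368-59679375, plus strand) is the pyruvate kinase gene that makes the M1 and M2 forms by alternative splicing, which gene tables do not separate. It had 889.7, 515.8, 818.1 and 1086 CPM in shDis3 replicates 1 to 4, 942.3, 882.4, 1042 and 995 CPM in shExosc10 replicates 1 to 4 and 1149, 832.7, 1444 and 953.7 CPM in shLuc replicates 1 to 4. Groups overlapped, and shDis3 replicate 4 was above every shExosc10 library. The log2 fold change of Pkm was -0.40 (SE 0.23) in shDis3 against shLuc, -0.18 (SE 0.23) in shExosc10 against shLuc and -0.22 (SE 0.23) in shDis3 against shExosc10. Ldha (ENSMUSG00000063229.15, chr7:46841475-46855627, plus strand), which regenerates NAD+ for the Gapdh step, had 666.7, 483, 647.8 and 888.9 CPM in shDis3 replicates 1 to 4, 838.5, 753.4, 940.1 and 911.4 CPM in shExosc10 replicates 1 to 4 and 1007, 922.9, 1307 and 685.7 CPM in shLuc replicates 1 to 4. Replicate 4 of shDis3 lay above shLuc replicate 4 and 2 of the shExosc10 libraries, and the other shDis3 libraries lay below all others. Its log2 fold change was -0.55 (SE 0.22) in shDis3 against shLuc, -0.19 (SE 0.22) in shExosc10 against shLuc and -0.36 (SE 0.22) in shDis3 against shExosc10.

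Side by side, the log2 fold change was below 0 for all 10 enzymes in each comparison, with a median of -0.57 (-0.77 to -0.28) in shDis3 against shLuc, -0.21 (-0.35 to -0.07) in shExosc10 against shLuc and -0.37 (-0.62 to -0.10) in shDis3 against shExosc10. On log2(TPM + 1) with limma a pair of these values lay above 0, Pgk1 at 0.016 in shExosc10 against shLuc and Gpi1 at 0.092 in shDis3 against shExosc10. These comparisons share libraries, so the signs do not add to each other, and the 10 transcripts vary together across libraries. Over all genes tested the medians were 0.02, 0.02 and 0.01. None of the 10 passed an adjusted p of 0.05 in edgeR's test in any comparison. Of all genes, 0% passed in shDis3 against shLuc, 0.00567% (1 gene, lower) in shExosc10 against shLuc and 0.0113% (2 genes) in shDis3 against shExosc10. DESeq2 and limma on log2(TPM + 1) called none of the 10 either, where DESeq2 called 0.17%, 0.0145% and 0.348% of all genes in these comparisons and limma 0%. At an unadjusted p under 0.05 in edgeR's test, 7 of the 10 enzymes and 719 of 17650 genes were found in shDis3 against shLuc, 0 of the 10 and 371 genes in shExosc10 against shLuc, and 2 of the 10 and 1055 genes in shDis3 against shExosc10. The 7 were Pfkl, Aldoa, Tpi1, Pgk1, Pgam1, Eno1 and Ldha, and Gpi1, Gapdh and Pkm were not among them. The labels describe bulk samples, in which fewer cells of a type and less RNA per cell cannot be told apart.

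**Figure D3:**
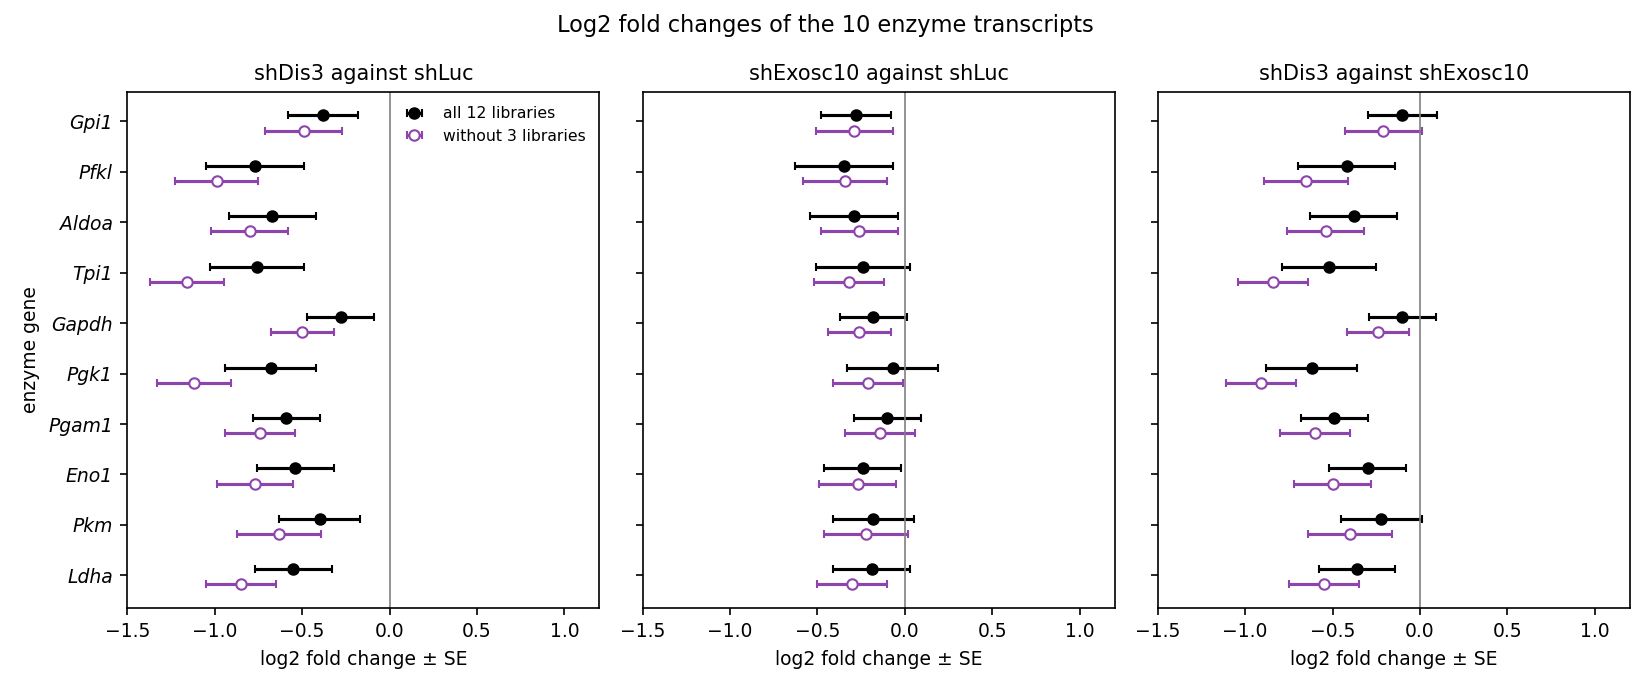
Log2 fold change with its standard error for each enzyme in the 3 comparisons. Filled points use all 12 libraries, and open points leave out shDis3 replicate 4, shExosc10 replicate 1 and shLuc replicate 4. All values lie below 0 on this scale, while on log2(TPM + 1) Pgk1 in shExosc10 against shLuc and Gpi1 in shDis3 against shExosc10 lie above it. Those of shDis3 against shLuc lie between -0.77 and -0.28 with all libraries, and those of shExosc10 against shLuc lie nearer to 0.

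Without the 3 libraries named above (shDis3 replicate 4, shExosc10 replicate 1, shLuc replicate 4) the log2 fold changes of all 10 enzymes were farther below 0 in both comparisons of shDis3. In shDis3 against shLuc 4 of the 10 enzymes were then called lower by edgeR's test, beside 1.19% of all genes: Tpi1 at -1.16 (SE 0.21, adjusted p = 0.004498), Pgk1 at -1.12 (SE 0.21, adjusted p = 0.005784), Pfkl at -0.99 (SE 0.24, adjusted p = 0.03436) and Ldha at -0.85 (SE 0.20, adjusted p = 0.02602). Tpi1 and Pgk1 were also called lower in shDis3 against shExosc10, at -0.84 (SE 0.20, adjusted p = 0.03686) and -0.91 (SE 0.20, adjusted p = 0.02423), beside 1.2% of all genes. None was called in shExosc10 against shLuc, beside 0.0157% of all genes. In these 9 libraries 8 of the 10 enzymes were lower in shDis3 than in shLuc without overlap, all but Gpi1 and Pkm, beside 8.61% of all genes. Against shExosc10 the count was 7, beside 9.59%, and in shExosc10 against shLuc it was 1 (Gapdh), beside 5.48%. With shDis3 replicate 2 left out in place of shDis3 replicate 4, edgeR called 3 enzymes lower in shDis3 against shLuc, beside 3.98% of all genes: Pfkl at -0.77 (SE 0.18, adjusted p = 0.02271), Tpi1 at -0.84 (SE 0.22, adjusted p = 0.03231) and Aldoa at -0.71 (SE 0.20, adjusted p = 0.04849). It called none in shDis3 against shExosc10, beside 5.92% of all genes. With both shDis3 replicates 2 and 4 left out, it called 6 lower in shDis3 against shLuc (Pfkl, Aldoa, Tpi1, Pgk1, Pgam1 and Ldha), beside 5.36%, and again Tpi1 and Pgk1 in shDis3 against shExosc10, beside 5.99%. Pfkl and Tpi1 were thus called in shDis3 against shLuc under each of these 3 choices, and Pgk1 and Ldha under all but the one that kept shDis3 replicate 4. Over all alternatives the lowest adjusted p in shDis3 against shLuc was 0.001782 for Tpi1, 0.002577 for Pgk1, 0.01259 for Pfkl and 0.01827 for Ldha, and the highest was 1.0 for each. Leaving out shLuc replicate 3, in which all 10 transcripts were highest, moved the median to -0.41 in shDis3 against shLuc and to -0.013 in shExosc10 against shLuc.

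The 10 transcripts varied together from library to library. Each was centred on its own mean over the 12 libraries on the log2(CPM + 1) scale and the 10 values were averaged, which gave -0.19, -0.76, -0.27 and 0.00 in shDis3 replicates 1 to 4, -0.17, -0.04, 0.29 and 0.16 in shExosc10 and 0.31, 0.18, 0.70 and -0.20 in shLuc. Replicate 2 of shDis3 was lowest and shLuc replicate 3 highest, and the shLuc libraries alone spanned -0.20 to 0.70. The correlation of each enzyme with the mean of the other 9 lay between 0.868 (Pkm) and 0.975 (Eno1) over 12 libraries, as a description of libraries that share depth, composition and scaling. By the same measure the 5 protein-coding genes outside all lists most like the enzymes, among 7921 whose mean reached 10 CPM, were Grhpr (glyoxylate reductase, 0.968), Map2k1 (a kinase of the MAP kinase cascade, 0.928), Nudt9 (a hydrolase of ADP-ribose, 0.913), Gbe1 (the glycogen branching enzyme, 0.912) and Eif4ebp1 (a repressor of cap-dependent translation, 0.904). Grhpr had 12.59, 8.545, 11.6 and 17.88 CPM in shDis3, 13.64, 13.35, 18.92 and 17.71 CPM in shExosc10 and 20.22, 16.83, 25.0 and 11.53 CPM in shLuc. The lowest values were those of Anxa1 (-0.833), Xpo7 (-0.83) and Sp140 (-0.822).

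Some other genes that respond to low oxygen in many tissues differed more between libraries than the enzymes did. The highest library exceeded the lowest 1.965 times (Gapdh) to 3.84 times (Pfkl) among the enzymes, 9.678 times for Bnip3 and 39.85 times for Ankrd37, but 2.087 times for Bnip3l and 2.331 times for Fam162a, and the lists were not compared by a test. Bnip3, a mitochondrial protein of mitophagy, had 13.05, 13.44, 18.01 and 22.73 CPM in shDis3 replicates 1 to 4, 17.62, 80.72, 115.3 and 101.2 CPM in shExosc10 replicates 1 to 4 and 107, 103.3, 126.3 and 14.11 CPM in shLuc replicates 1 to 4. Egln3, a prolyl hydroxylase that marks HIF for degradation, had 47.56, 36.09, 52.28 and 19.65 CPM in shDis3 replicates 1 to 4, 30.46, 124.5, 149 and 118.1 CPM in shExosc10 replicates 1 to 4 and 151.2, 123.2, 153.4 and 60.74 CPM in shLuc replicates 1 to 4. Both were low in every shDis3 library and also in shExosc10 replicate 1 and shLuc replicate 4. The mean of the centred enzyme values was -0.19, -0.76, -0.27 and 0.00 in shDis3 replicates 1 to 4. It was -0.17 in shExosc10 replicate 1 and -0.20 in shLuc replicate 4. In shExosc10 replicate 2, with Bnip3 at 80.72 CPM, it was -0.04. With the mean of the 10 enzymes over 12 libraries Bnip3 correlated at 0.828, Egln3 at 0.689 and Ankrd37 at 0.822, as a description. Of the hypoxia response genes outside glycolysis 17 of 18 were measured, and in shDis3 against shLuc 13 were below 0 and 4 above, with a median of -0.75. None passed edgeR's test, 10 had an unadjusted p under 0.05 (719 of 17650 over all genes), and DESeq2 called 2 lower (Ndrg1 and Ero1l), beside 0.109% of all genes. Without the 3 libraries edgeR called 10 lower, beside 1.19% of all genes, among them Ankrd37 at -3.97 (SE 0.34, adjusted p = 4.867e-05) and Bnip3 at -2.92 (SE 0.21, adjusted p = 2.018e-05). The left-out shLuc replicate 4 and shExosc10 replicate 1 had the lowest Bnip3 of their groups. Leaving them out widens the difference from shDis3, so these calls are no independent test. In shExosc10 against shLuc the median was -0.01. The part of the hypoxia response in the enzyme values was not tested.

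**Figure D4:**
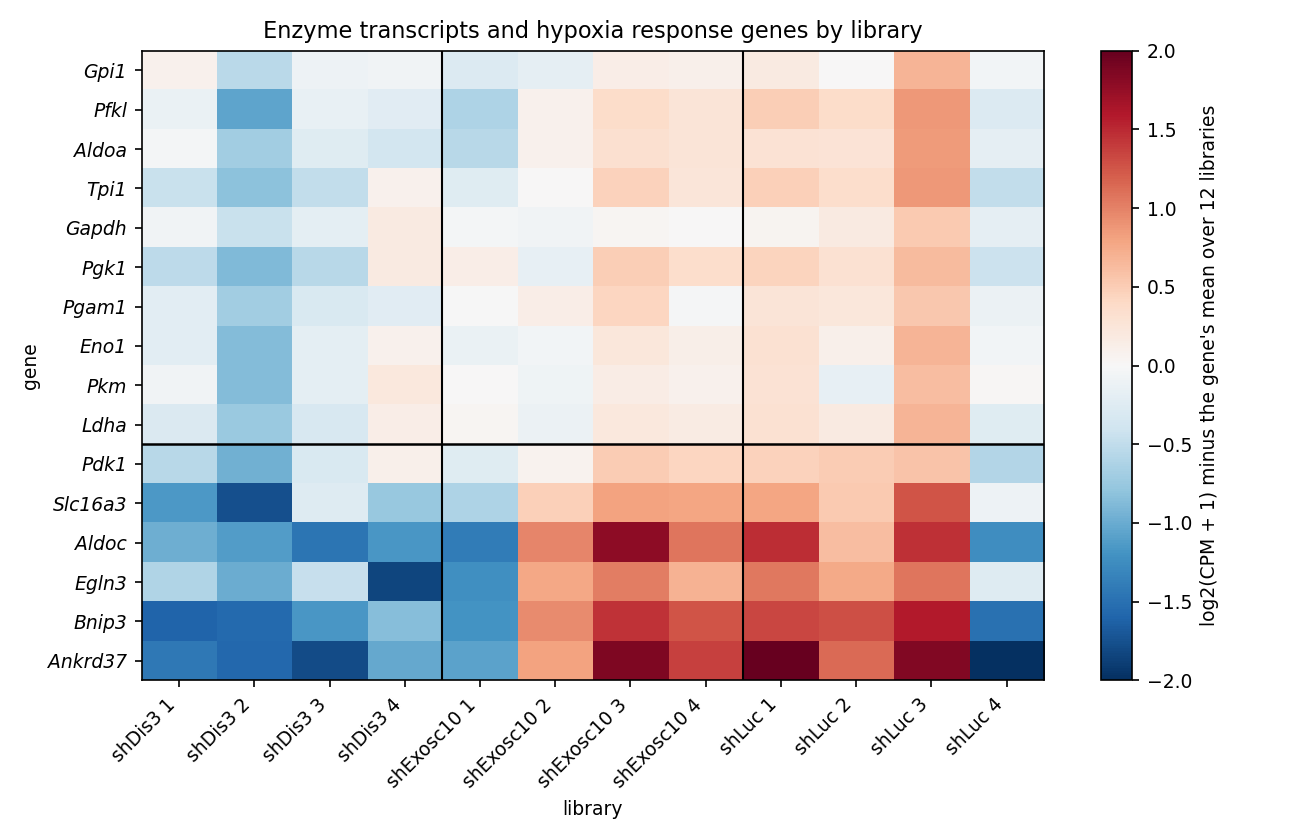
Log2(CPM + 1) minus the gene's own mean over the 12 libraries, as colour, for the 10 enzymes (top) and for Pdk1, Slc16a3, Aldoc, Egln3, Bnip3 and Ankrd37 (bottom), which were chosen after their values were seen. The enzymes are lowest in shDis3 replicate 2 and highest in shLuc replicate 3, and Aldoc, Bnip3 and Ankrd37 are low in all shDis3 libraries, in shExosc10 replicate 1 and in shLuc replicate 4.

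The main isozyme held nearly all of the TPM at some steps and shared it at others. Aldoa made up 98.76% to 99.92% of the TPM of Aldoa and Aldoc, Eno1 98.60% to 99.83% of that of Eno1, Eno2 and Eno3, and Ldha 99.01% to 99.87% of that of Ldha and Ldhb. Pkm was accompanied by Pklr, the isozyme of liver and red cells, at 49.07 to 123.4 TPM. The share of Pkm was 79.62%, 77.68%, 78.53% and 87.58% in shDis3 replicates 1 to 4, 84.24%, 79.81%, 81.82% and 78.15% in shExosc10 and 80.14%, 75.02%, 79.72% and 83.61% in shLuc. Its means were 80.9% ± 4.55 in shDis3, 81.0% ± 2.63 in shExosc10 and 79.6% ± 3.53 in shLuc (SD, n = 4 each), and the groups overlapped. At the phosphofructokinase step no gene dominated: the share of Pfkl was 37.8% ± 4.92 in shDis3, 40.4% ± 4.51 in shExosc10 and 40.2% ± 3.16 in shLuc. Hk1, a hexokinase ahead of the 10 enzymes, made up 94.4% ± 1.32 of the TPM of Hk1, Hk2 and Hk3 in shDis3, 93.9% ± 2.12 in shExosc10 and 94.2% ± 2.32 in shLuc. None of 18 differences in share between groups passed a two-sided exact permutation test, whose smallest possible p with 4 against 4 is 0.0286. After adjustment over 18 tests a single share at that p could not pass, so the tests say nothing about whether shares were stable. The smallest p was 0.0571, for Ldha, which was 0.47 percentage points lower in shDis3 than in shLuc and 0.435 points lower than in shExosc10, with a Benjamini-Hochberg value of 0.514 for each.

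**Figure D5:**
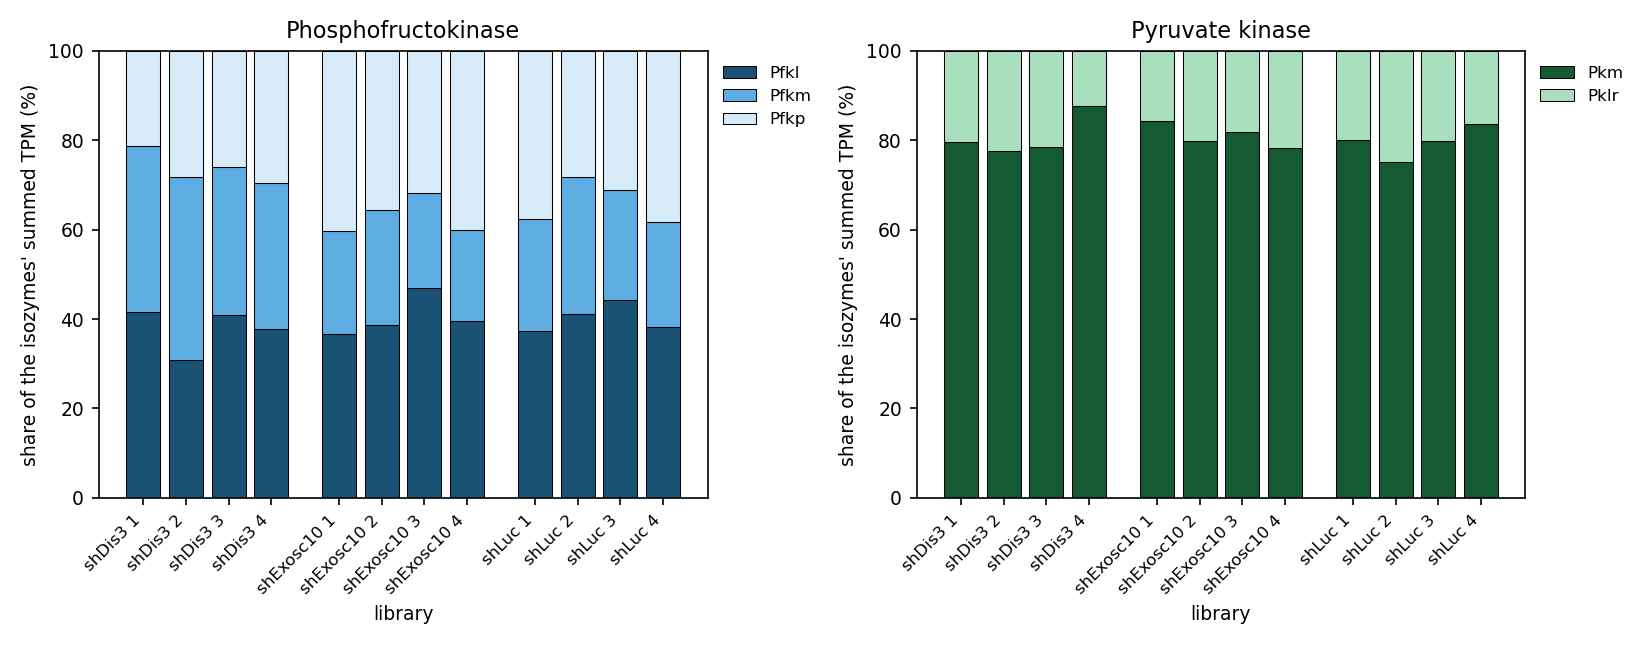
Share of the isozymes' summed TPM (%) per library at the phosphofructokinase step (Pfkl, Pfkm, Pfkp) and at the pyruvate kinase step (Pkm, Pklr), with shDis3, shExosc10 and shLuc from left to right. Pkm holds 75.02% to 87.58% everywhere, and the Pfkm share of the shDis3 libraries (32.64% to 41.01%) lies above that of the others.

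Within phosphofructokinase the remainder was divided differently. Pfkm held 37.03%, 41.01%, 33.2% and 32.64% in shDis3 replicates 1 to 4, 23.01%, 25.83%, 21.21% and 20.45% in shExosc10 and 24.91%, 30.65%, 24.62% and 23.57% in shLuc, so that the shDis3 libraries lay above all others. This share was picked after its values were seen and has no test. Pfkp, the platelet type, had 63.69, 44.64, 63.59 and 74.73 CPM in shDis3, 78.05, 105.0, 119.4 and 147.3 CPM in shExosc10 and 151.8, 94.95, 144.8 and 75.15 CPM in shLuc. The shDis3 libraries did not overlap either other group, though shDis3 replicate 4 nearly met shLuc replicate 4. Among all genes tested, 0.782% were lower in shDis3 than in shLuc without overlap, and 1.8% lower than in shExosc10. The log2 fold change of Pfkp was -0.92 (SE 0.26) in shDis3 against shLuc, with an adjusted p of 0.9051 in edgeR's test. Pfkm on the CPM scale overlapped between groups, at -0.26 (SE 0.23) in shDis3 against shLuc. Aldoc, a minor aldolase here, had 0.694 to 1.353 CPM in shDis3, 0.7578 to 15.01 CPM in shExosc10 and 0.9721 to 11.88 CPM in shLuc, and was low in the same libraries as Bnip3. Its log2 fold change in shDis3 against shLuc was -2.85 (SE 0.77), with an adjusted p of 0.9051 in edgeR's test and 0.0418 with DESeq2.

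The neighbouring parts of glucose metabolism showed no common direction in shDis3 against shLuc, and none of their genes passed edgeR's test with all libraries, beside 0% of all genes. Of the other isozymes of these steps 9 of 14 were measured, 4 above 0 and 5 below, with a median of -0.26. Of the genes of glucose entry and the hexokinase step 8 of 11 were measured, 4 on each side, with a median of -0.10. Hk1, the main hexokinase of red cells, was at -0.41 (SE 0.27). All 9 regulators and side branch genes were measured, 3 above and 6 below 0, with a median of -0.11, and of 16 measured genes of lactate and pyruvate fate 5 were above and 11 below, with a median of -0.07. Slc16a3, the lactate exporter MCT4, stood out in the last list at -1.60 (SE 0.37, adjusted p = 0.7758 in edgeR's test and 0.01293 with DESeq2). All 8 pentose phosphate genes were measured, 6 above and 2 below 0, with a median of 0.04, and Tkt (transketolase) at 0.03 (SE 0.18) and G6pdx (glucose-6-phosphate dehydrogenase) at 0.10 (SE 0.19) were nearly level. Among 17 regulators of transcription of the pathway 6 were above and 10 below 0, with a median of -0.07, and the remaining gene rounded to 0. Hif1a was at 0.17 (SE 0.25) and Myc at 0.12 (SE 0.29).

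In shExosc10 against shLuc the medians of the same 6 lists lay between -0.13 and 0.06, and in shDis3 against shExosc10 between -0.28 and 0.16, with no gene called in edgeR's test, beside 0.00567% and 0.0113% of all genes. Without the 3 libraries shDis3 against shLuc gave 3 calls lower among the other isozymes (Pfkp, Aldoc and Eno1b), 2 lower in lactate and pyruvate fate (Slc16a3 and Pdk1), 1 lower among side branches (Pgm1), 1 higher at the hexokinase step (Hk3), and Egln3 lower and Arrdc4 higher among the regulators, beside 1.19% of all genes lower and 2.85% higher. No pentose phosphate gene was called. In shDis3 against shExosc10 the same 9 libraries gave calls lower for Pfkp, Aldoc, Slc16a3, Pdk1, Epas1 and Egln3 and higher for Hk3, beside 1.2% of all genes lower and 2.02% higher. Leaving out shLuc replicate 4 alone gave calls lower in shDis3 against shLuc for Aldoc, Slc16a3 and Egln3 and for 4 hypoxia response genes (Bnip3, Ankrd37, Ndrg1 and Ero1l), beside 0.207% of all genes. As that library had the lowest Bnip3 and Egln3 of shLuc, these calls are no independent test.

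Markers of the sorted cells and of other cell types also varied across these libraries. The 11 erythroid precursor markers, all detected, summed to 1486 to 2241 CPM in shDis3, 1799 to 3109 CPM in shExosc10 and 1401 to 2886 CPM in shLuc. Transcripts of the sorted cell type were thus found in every library, which does not give the share of such cells. The 11 markers had no common direction in shDis3 against shLuc, with 5 above and 6 below 0 and a median log2 fold change of -0.03. The 10 megakaryocyte markers summed to 296.3 to 361.3 CPM in shDis3, 127.0 to 318.6 CPM in shExosc10 and 77.32 to 410.1 CPM in shLuc. The upper ends were shExosc10 replicate 1 and shLuc replicate 4. The other shExosc10 libraries had 127.0 to 154.2 CPM, and shLuc replicates 1 to 3 had 81.98, 77.32 and 123.9 CPM. All 10 were above 0 in shDis3 against shLuc, with a median log2 fold change of 0.84. The 10 granulocyte precursor markers summed to 2101 to 4838 CPM in shDis3, 1299 to 2061 CPM in shExosc10 and 1052 to 4264 CPM in shLuc. This sum exceeded the erythroid sum in every shDis3 library. It also did so in shExosc10 replicate 1 (2061 against 1799 CPM) and shLuc replicate 4 (4264 against 1401 CPM). In the other shExosc10 and shLuc libraries it was below the erythroid sum. Of the granulocyte precursor markers 8 of the 9 measured were above 0 in shDis3 against shLuc, with a median of 0.74. The 10 macrophage and monocyte markers summed to 73.29 to 106.7 CPM in shDis3, 55.98 to 76.58 CPM in shExosc10 and 51.23 to 104.3 CPM in shLuc. Here too shExosc10 replicate 1 and shLuc replicate 4 were the upper ends. Of these markers 6 of the 7 measured were above 0 in shDis3 against shLuc, with a median of 0.68. The 8 stem and early progenitor markers summed to 53.68 to 93.61 CPM in shDis3. They summed to 91.37 CPM in shExosc10 replicate 1 and 16.24 to 21.94 CPM in the other shExosc10 libraries. In shLuc they summed to 110.0 CPM in replicate 4 and 13.03 to 21.31 CPM in the other libraries. All 8 were above 0 in shDis3 against shLuc, with a median of 0.56. The 8 mast cell and basophil markers summed to 21.94 to 91.01 CPM in shDis3. Their sum was 115.8 CPM in shExosc10 replicate 1 and 8.619 to 11.42 CPM in the other shExosc10 libraries. It was 118.8 CPM in shLuc replicate 4 and 8.65 to 19.26 CPM in the other shLuc libraries. Among these markers Fcer1a was at 0 in all libraries. Of the 5 measured, 4 were above 0 in shDis3 against shLuc, with a median of 0.37. The 6 lymphoid markers summed to 1.84 to 4.335 CPM in shDis3, 1.267 to 3.447 CPM in shExosc10 and 0.1583 to 6.267 CPM in shLuc, and the 8 hepatocyte markers to 10.37 to 25.68 CPM in shDis3 and 13.44 to 23.03 CPM in shExosc10, with 12.06, 17.3 and 27.38 CPM in shLuc replicates 4, 2 and 1 and the highest sum in shLuc replicate 3. In shDis3 against shLuc 1 of 3 measured lymphoid markers was above 0 (median -0.08), and 2 of 3 measured hepatocyte markers were (median 0.72). The part of these cell types in the enzyme values was not tested.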

How the data were processed

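Each of the 12 libraries came as a gene table with a length, an effective length, an expected count, a TPM and an FPKM per identifier. The authors' deposited expected counts and TPM were made with STAR 2.5.3a and RSEM 1.3.0 on mm10 (GRCm38), per the submitters' processing notes, and the annotation is not given in the sources used here. Of 55385 identifiers, 54487 matched GENCODE M21 with their version and 55144 without it. The deposited length was used only to describe gene size, and the effective length and FPKM were not used. RNA came from a stranded total RNA kit for low input, per the labels' protocols. Expected counts (4.55% not whole) entered as rounded whole numbers into edgeR 4.0.16 in R 4.3.3: TMM scaling, a filter on low counts by group, a quasi-likelihood fit over all 12 libraries with group as the factor, and Benjamini-Hochberg adjustment over 17650 genes with a threshold of 0.05. The biological coefficient of variation was 60%. Library totals lay between 14936200 and 32397204, and intervals are not given for single libraries because replicates carry the error. Deposited TPM served for levels between genes and for isozyme shares, which were compared by exact permutation over 70 regroupings and adjusted over 18 tests. Alternatives were RLE scaling, DESeq2 1.42.0, limma 3.58.1 on log2(TPM + 1), no filter, a replicate block, leaving out each library, leaving out 3 libraries (also with shDis3 replicate 2 in place of or beside replicate 4), a factor for the cluster of the library, shares from counts, and pseudogene or second Aldoa counts added to the enzymes, with the alternatives on shDis3 replicate 2 and on second Aldoa counts chosen after seeing the data. The scripts were tested on simulated data. There the edgeR fit called 34.3% of 2-fold changes in shDis3 against shLuc and 43.3% in shExosc10 against shLuc. Changes of this size or smaller can thus go uncalled. The 10 enzymes were named throughout, and other genes came from 7 lists of pathway and hypoxia genes, from marker lists, or as the 5 genes most and 3 least like the enzymes. Members and lists were chosen with earlier results of these data known.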

Additional observations from a re-analysis of the deposited data

Results flagged for a closer look

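Of 48 groups of 4 libraries tested for a single distant value (Dixon's ratio of gap to range, above the critical value), 3 were found, where chance gives about 1 in 20. Pfkl had 53.0 CPM in shDis3 replicate 2, with 94.5 to 101.1 CPM in the other shDis3 libraries and a ratio of 0.863. The share of Hk1 among the hexokinases was 90.75% in shLuc replicate 4, with 95.1% to 95.69% in the other shLuc libraries and a ratio of 0.881. The share of Ldha among the lactate dehydrogenases was 99.25% in shLuc replicate 4, with 99.78% to 99.85% in the other shLuc libraries and a ratio of 0.883. Replicate 4 of shLuc is the library that correlated best over all genes with a shDis3 library.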

How the results depend on the processing

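Over the 24 alternatives, 23 of which give each enzyme an adjusted p, those that left out 3 or 4 libraries gave all enzyme calls. Without the 3 libraries these were 4 in shDis3 against shLuc (Pfkl -0.99, Tpi1 -1.16, Pgk1 -1.12, Ldha -0.85) and 2 in shDis3 against shExosc10 (Tpi1 -0.84, Pgk1 -0.91). With shDis3 replicate 2 left out in place of replicate 4 they were 3 in shDis3 against shLuc (Pfkl -0.77, Aldoa -0.71, Tpi1 -0.84), and over all genes there were 1422 calls in shDis3 against shLuc, 2 in shExosc10 against shLuc and 1814 in shDis3 against shExosc10. With both left out they were 6 in shDis3 against shLuc (Pfkl -0.73, Aldoa -0.62, Tpi1 -1.04, Pgk1 -1.0, Pgam1 -0.59, Ldha -0.70) and 2 in shDis3 against shExosc10 (Tpi1 -0.71, Pgk1 -0.79), with 2460, 6 and 2699 calls over all genes in shDis3 against shLuc, shExosc10 against shLuc and shDis3 against shExosc10. Over all genes, shDis3 against shLuc gave 0 calls as reported, 1 with RLE scaling, 28 with DESeq2, 123 with no filter, 772 without the 3 libraries (545 higher, 227 lower) and 1 with the cluster factor. For shExosc10 against shLuc the 1 call became 6 with DESeq2, 0 with limma, 10 with no filter and 3 without the 3 libraries. For shDis3 against shExosc10 the 2 calls became 49 with DESeq2, 0 with limma, 179 with no filter and 617 without the 3 libraries. The labels do not say whether the replicate numbers shared by the groups pair the libraries. After each gene's group mean was subtracted, same-numbered libraries correlated between -0.47 and 0.77, and 4 of 12 correlated best with their own number. These values do not settle whether libraries are paired. With the replicate block shDis3 against shExosc10 gave 1 call and no enzyme was called. Leaving out 1 library gave 0 to 146 calls in shDis3 against shLuc (146 without shLuc replicate 4), 0 to 2 in shExosc10 against shLuc and 1 to 2 in shDis3 against shExosc10.

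Signs turned for small values. On log2(TPM + 1) with limma, Pgk1 was at 0.016 in shExosc10 against shLuc and Gpi1 at 0.092 in shDis3 against shExosc10, where the medians of the 10 were -0.33 in shDis3 against shLuc, -0.11 in shExosc10 against shLuc and -0.19 in shDis3 against shExosc10, beside medians over all genes of 0.107, 0.029 and 0.074. Leaving out 1 library, Gpi1 ran from -0.18 to 0.005 in shDis3 against shExosc10, and in shExosc10 against shLuc Pgk1 ran from -0.25 to 0.089 and Pgam1 from -0.20 to 0.035. In percentage points, the share of Pfkl from counts was -3.42 in shExosc10 against shLuc and 1.28 in shDis3 against shExosc10, and without the 3 libraries that of Hk1 was -0.505 in shDis3 against shLuc and -0.0345 in shDis3 against shExosc10. Leaving out 1 library, shares in shDis3 against shLuc ran from -0.969 to 0.677 (Hk1) and -1.01 to 2.56 (Pkm). In shDis3 against shExosc10 they ran from -0.499 to 1.11 (Hk1), -2.39 to 0.925 (Pkm) and -0.315 to 0.0259 (Eno1). In shExosc10 against shLuc they ran from -1.47 to 0.684 (Hk1), -0.15 to 2.71 (Pkm), -2.01 to 1.52 (Pfkl), -0.351 to 0.0321 (Aldoa) and -0.174 to 0.0558 (Ldha). The cause of these changes was not tested.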
